A study of Mus musculus with 2 samples.

Results

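The genes studied here encode desmin and 9 proteins that sit at or beside the Z-disc of skeletal muscle: Des, Tcap, Myot, Ldb3, Csrp3, Ankrd2, Myoz1, Myoz2, Xirp2 and Fhl1. They were chosen by name and not by a rule on measured values, though earlier results of these data were known at the time. They are 10 of the 21911 protein-coding genes of the mouse annotation (GENCODE M21, genome build mm10). For each gene the window was its body plus 20 kb on both sides. These windows held 118 of 131398 peaks and 342 of 339656 footprints in replicate 1, and 95 of 91567 peaks and 289 of 234091 footprints in replicate 2. A peak is a stretch of open chromatin called from the cuts of the enzyme DNase I, and a footprint is a short run of protected bases, as left by a bound protein.

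The tissue was gastrocnemius, a large muscle of the calf, from B6CASTF1/J animals, an F1 hybrid supplied by The Jackson Laboratory. They were male adults of 18 to 20 months, and the assay was DNase-seq. There were 2 samples in 1 group, labelled as biological replicates 1 and 2. The donor label is the same for both and the biosample label is not, so they may share an animal. Each SD given (n = 2) therefore covers the spread of these samples alone, which may be technical. No treatment, young animal or other tissue was measured, so no test between groups was possible and no p-value is given. The hybrid has a B6 and a CAST copy of each autosome, and the files do not separate the copies.

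Muscle force runs along rows of sarcomeres, whose ends meet at the Z-disc, where actin filaments of neighbouring sarcomeres and the ends of titin are anchored. Desmin intermediate filaments wrap the Z-discs and tie myofibrils to each other, to nuclei and to the cell membrane, and mutations in desmin, myotilin, ZASP (Ldb3) and FHL1 cause myofibrillar and related myopathies in people. Several of these proteins also carry signals, since they bind calcineurin, titin or kinases and can move to the nucleus when muscle is stretched. Promoters of muscle genes often hold an E-box, the site of the MyoD family, together with sites for MEF2, SRF (the CArG box) or TEAD (MCAT).

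The sequences below are the open stretches on which the description turns. They are reference sequence of mm10 printed 5′ to 3′ on the strand of the named gene, and peaks that run past a start site were ended there. The distance is that of the peak centre from the gene's 5′-most annotated start site, negative upstream. In promoter peaks, capitals mark matches to the myogenic E-box (CAGCTG), MEF2, CArG box, MCAT (CATTCC) or TATA box (TATAAA), and in the others the CTCF core or the E-box. CTCF is the protein that, with cohesin, anchors chromatin loops. Its core was added to the motifs after the sequences had been seen.
Des at -818 (chr1:75359401-75359620): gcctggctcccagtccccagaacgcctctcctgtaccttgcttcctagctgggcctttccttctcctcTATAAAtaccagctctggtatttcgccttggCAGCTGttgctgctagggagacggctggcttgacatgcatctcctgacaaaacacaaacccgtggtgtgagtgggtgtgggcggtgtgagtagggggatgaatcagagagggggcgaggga
Des at -48 (chr1:75360161-75360328): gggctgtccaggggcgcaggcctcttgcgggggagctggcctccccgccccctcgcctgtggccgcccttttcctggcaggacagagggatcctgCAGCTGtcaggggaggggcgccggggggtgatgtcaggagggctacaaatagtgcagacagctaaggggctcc
Des at 11232 (chr1:75371461-75371660): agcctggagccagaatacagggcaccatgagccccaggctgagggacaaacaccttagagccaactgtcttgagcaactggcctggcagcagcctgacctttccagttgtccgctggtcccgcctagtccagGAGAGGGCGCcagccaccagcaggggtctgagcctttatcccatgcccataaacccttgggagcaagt
Ldb3 at -49 (chr14:34588683-34588880): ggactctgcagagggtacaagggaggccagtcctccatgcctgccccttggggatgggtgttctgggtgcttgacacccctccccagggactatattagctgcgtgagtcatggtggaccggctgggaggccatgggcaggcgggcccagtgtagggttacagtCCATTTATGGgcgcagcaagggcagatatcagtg
Ldb3 at -819 (chr14:34589381-34589620): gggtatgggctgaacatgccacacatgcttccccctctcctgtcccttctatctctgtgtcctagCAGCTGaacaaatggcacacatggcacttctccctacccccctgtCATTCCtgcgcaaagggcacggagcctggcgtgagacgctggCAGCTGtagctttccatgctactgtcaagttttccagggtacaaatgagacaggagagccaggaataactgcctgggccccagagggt
Ldb3 at 14391 (chr14:34574181-34574400): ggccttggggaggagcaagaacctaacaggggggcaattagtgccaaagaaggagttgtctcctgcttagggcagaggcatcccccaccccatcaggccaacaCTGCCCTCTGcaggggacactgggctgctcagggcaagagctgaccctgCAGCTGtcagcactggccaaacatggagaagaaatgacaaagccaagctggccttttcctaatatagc
Myoz1 at -1 (chr14:20656541-20656660): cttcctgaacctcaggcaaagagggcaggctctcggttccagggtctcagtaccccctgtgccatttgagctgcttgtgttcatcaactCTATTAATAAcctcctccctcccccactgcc
Myoz1 at -4591 (chr14:20661041-20661220): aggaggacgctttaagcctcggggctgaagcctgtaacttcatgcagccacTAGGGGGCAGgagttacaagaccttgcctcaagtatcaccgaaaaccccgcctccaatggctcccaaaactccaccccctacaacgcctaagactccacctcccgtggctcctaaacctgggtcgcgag
Xirp2 at -1 (chr2:67445881-67446001): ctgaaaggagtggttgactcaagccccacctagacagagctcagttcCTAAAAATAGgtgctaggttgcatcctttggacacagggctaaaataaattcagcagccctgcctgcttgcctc
Ankrd2 at -9659 (chr19:42026241-42026440): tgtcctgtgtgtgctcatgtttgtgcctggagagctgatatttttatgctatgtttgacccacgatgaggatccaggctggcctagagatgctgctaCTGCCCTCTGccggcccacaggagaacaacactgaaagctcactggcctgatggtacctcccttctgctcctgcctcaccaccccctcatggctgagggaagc
Fhl1 at 24074 (chrX:56755781-56755940): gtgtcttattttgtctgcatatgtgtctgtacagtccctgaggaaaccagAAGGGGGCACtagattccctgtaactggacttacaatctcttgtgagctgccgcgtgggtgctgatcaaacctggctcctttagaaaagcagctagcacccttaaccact

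All 10 members had a peak at a promoter, defined as 1000 bp on either side of any annotated protein-coding start site, in both replicates. The background was 65.7% of the 21911 genes in replicate 1, 63.6% in replicate 2 and 62.4% in both. Of the members, 9 have CpG-poor promoters (CpG observed over expected under 0.5), and only 32.0% of the 10388 genes of that kind had a promoter peak in both replicates. Fhl1, with a ratio of 0.938, is the exception. The peaks were of moderate height for promoters. The signal is the height of a peak in the authors' units. Each file was scaled separately, the scale is not stated, and the sequencing depth is unknown. The median over the members' strongest promoter peaks was 2.22 in replicate 1 and 1.25 in replicate 2, beside 3.17 and 3.42 over all genes with a promoter peak, and 1.43 and 1.60 over CpG-poor genes with such a peak. In whole tissue, fewer nuclei of a kind and less opening per nucleus cannot be told apart.

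The order of the members was set by the rank of the promoter signal among all genes, the share of genes with a lower promoter peak or none. Des stood at 82.2% in replicate 1 and 76.3% in replicate 2, above the range of every other member. Ldb3 (66.9% and 58.1%), Ankrd2 (61.6% and 62.3%), Tcap (63.9% and 55.5%), Myoz1 (61.6% and 51.0%), Xirp2 (55.8% and 47.7%), Myot (56.5% and 45.4%) and Fhl1 (45.5% and 44.7%) followed. Each of these ranges overlapped the next, so neighbours in that run did not differ beyond their spread. Myoz2 (38.9% and 37.7%) and Csrp3 (37.6% and 37.5%), both known from slow fibres and heart, were lowest, and their ranges overlapped neither Fhl1 nor each other. As 65.7% and 63.6% of genes had a promoter peak, these ranks lie near the floor set by genes with none. The lower Myoz2 rank and the higher Csrp3 rank were 37.7% and 37.6%, so the separation of these genes is slight.

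**Figure D1:**
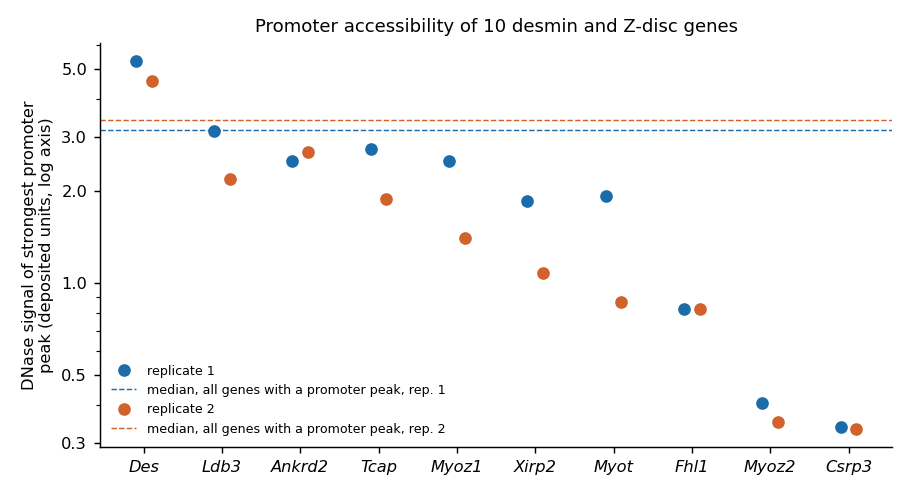
DNase signal of the strongest promoter peak of each member in both replicates (deposited units, log axis), ordered by mean rank among all genes, with dashed lines at the median over all genes with a promoter peak. Des lies above both lines in both replicates, and Myoz2 and Csrp3 lie near 0.3 to 0.4.

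Des encodes desmin, the intermediate filament protein of muscle (chr1:75360329-75368579, plus strand). Its start site peak, printed above as Des at -48, reached 5.32 in replicate 1 and 4.57 in replicate 2, with a mean of 4.95 ± 0.536 (SD, n = 2). It was the highest promoter signal among the members in both replicates. A second promoter peak centred at -818 had 1.69 and 1.19. Its sequence holds CAGCTG at bases 100 to 105, and a footprint covered that match in both replicates. The letters TATAAA, at bases 69 to 74 of the same sequence, were under no footprint. As background, the muscle enhancer described upstream of the desmin promoter is known to hold an E-box and a MEF2 site. The MEF2 consensus searched here had no exact match within this peak. The stretch CTATAAATAC, which includes the TATAAA, misses that consensus at its last base alone. The lack of an exact match thus does not show that a MEF2 site is absent. The CAGCTG at -73 in the start site peak was under no footprint in either replicate.

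Outside the promoter, the Des window held a compact upstream group and a downstream pair, both in intergenic sequence. The upstream group comprised 6 shared peaks between -17258 and -12844 bp, with signals from 0.680 to 2.59 in replicate 1 and from 0.654 to 1.95 in replicate 2. Human desmin is known to be controlled in part by a locus control region far upstream, and whether this group corresponds to it was not tested. The downstream pair lay at 10212 bp (3.25 and 2.71) and 11232 bp (5.19 and 3.79), between Des and Speg, which encodes a kinase of striated muscle. In replicate 1 the peak at 11232 bp was nearly as high as the Des start site. An intronic peak at 1662 bp had 1.86 and 1.29. The strongest Des peak called in replicate 1 alone lay at -2848 bp, with a signal of 1.44.

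Tcap encodes telethonin, which caps the ends of 2 titin molecules at the Z-disc (chr11:98383811-98384953). Its promoter was covered by overlapping peak records, the highest at 2.75 in replicate 1 and 1.89 in replicate 2 (2.32 ± 0.609, SD, n = 2), with 10 and 7 footprints. No CAGCTG, MEF2, CArG or MCAT match lay in the bases upstream of the start site in that peak. Other forms of the E-box were not counted. The Tcap gene is short and its window is shared with Stard3, Pnmt and Pgap3. Its highest window peak in replicate 1 lay at 1440 bp, downstream of Tcap towards Pnmt, with 3.43 there and 2.69 in replicate 2. An E-box in that peak was under a footprint in both replicates. The strongest shared peak outside promoters lay in an intron of Stard3 at -5830 bp (2.64 and 1.83) and held 1 E-box with no footprint.

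Myot encodes myotilin, which binds alpha-actinin and cross-links actin at the Z-disc (chr18:44334074-44355724). Its start site peak had 1.93 in replicate 1 and 0.872 in replicate 2, a ratio of 0.451, the lowest of the members. The highest peak of its window lay in an intron at 9987 bp, with 2.57 and 1.50. An intronic peak at 4017 bp (1.41 and 0.844), a coding exon peak at 3116 bp (0.822 and 0.816) and a distal peak at -18483 bp (1.77 and 0.721) were also shared. No other protein-coding gene lies in this window. The peaks at -18483 and 4017 bp each held a MEF2 match, under no footprint.

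Ldb3 encodes ZASP, also called Cypher, a PDZ and LIM protein that links alpha-actinin to signalling enzymes (chr14:34526603-34588682, minus strand). Its start site peak at -49 bp had 3.14 and 2.19 (2.66 ± 0.669, SD, n = 2), and a second promoter peak at -819 bp had 2.40 and 1.90. The first held the only CArG box found inside the members' peaks (bases 165 to 174 of the printed sequence), and the second held 2 E-boxes and an MCAT site. None of these 4 matches was under a footprint. The long body carried a chain of shared intronic peaks. Among them were peaks at 14391 bp (3.12 and 2.48), 18191 bp (2.39 and 2.19), 39131 bp (2.32 and 1.97) and 39781 bp (2.76 and 2.24). The peak at 14391 bp was close to the promoter peak of the same gene in replicate 1 and above it in replicate 2.

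Myoz1 and Myoz2 encode calsarcin-2 and calsarcin-1, which tie calcineurin to alpha-actinin in fast and in slow fibres respectively. At Myoz1 (chr14:20649107-20656540, minus strand) the start site peak had 2.15 and 1.27, and an intronic peak at 609 bp had 2.50 and 1.41 (1.96 ± 0.773, SD, n = 2). The E-box of the intronic peak was under a footprint in both replicates, whereas the MEF2 match at -31 in the start site peak was under none. At Myoz2 (chr3:123006206-123035015, minus strand) the start site peak had 0.406 in replicate 1 and 0.352 in replicate 2 (0.379 ± 0.0381, SD, n = 2). Both Myoz1 values lay above both Myoz2 values. The Myoz2 peak held a MEF2 match at -5 and an E-box in replicate 1. It had 1 footprint in replicate 1 and 0 in replicate 2. Besides it, the Myoz2 window held a 25 bp peak of 0.264 in an intron, in replicate 1 alone.

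The Myoz1 window held the highest peaks of all 10 windows, and they belong by position to its neighbours. The promoter of Usp54 had 8.21 and 8.46, and that of Sec24c, which encodes a COPII coat protein, had 8.05 and 9.43. Between Myoz1 and the promoters of Synpo2l, which encodes another Z-disc protein, a peak in a coding exon of Synpo2l at -4591 bp had 7.09 and 5.71. An intronic Myoz1 peak at 4599 bp had 2.95 and 2.41 and held a MEF2 match. Open sites ran from the Myoz1 intron to the Synpo2l promoters, and which gene each acts on was not tested.

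Csrp3 encodes muscle LIM protein, a stretch sensor of the Z-disc known mainly from heart and slow fibres (chr7:48830398-48848033, minus strand). Its only promoter peak was a small intronic peak, -590 bp from an internal start site and 2224 bp from the 5′-most, with 0.340 and 0.335 (0.338 ± 0.00331, SD, n = 2). No peak lay within 1000 bp of the 5′-most start site. Of the bases of all Csrp3 promoters, 3.14% in replicate 1 and 1.01% in replicate 2 lay in stretches with a false discovery rate under 0.05, and the lowest rate was 0.00317 and 0.0372. At Des the lowest rates were 3.82e-26 and 2.08e-15. The other 4 peaks of the Csrp3 window, 0.284 to 0.345, were called in replicate 1 alone. With the stricter of the deposited peak lists Csrp3 had no promoter peak in either replicate, and Myoz2 had none in replicate 2.

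Ankrd2 encodes an ankyrin repeat protein that binds titin and rises in stretched muscle (chr19:42036000-42045110). Its promoter peak, centred at -339 bp, had 2.50 in replicate 1 and 2.68 in replicate 2 (2.59 ± 0.128, SD, n = 2). It was the only member whose promoter signal was higher in replicate 2. The strongest shared peak outside promoters lay in an intron of Ubtd1 at -9659 bp, with 2.60 and 2.91, also higher in replicate 2. A further group at -18999 to -17949 bp in Ubtd1 had 1.01 to 1.78 and 0.939 to 1.76 in its shared peaks. An E-box in the peak at -17949 bp was under a footprint in both replicates. The promoter of Hoga1, next downstream, had 3.25 and 2.86.

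Fhl1 encodes a four-and-a-half LIM domain protein of the sarcomere and nucleus (chrX:56731787-56793346). It is on the X chromosome, of which males have 1 copy. It has 9 annotated start sites, more than any other member, and the strongest promoter peak lay at an internal one, -106 bp from it and 54634 bp from the 5′-most, with 0.827 and 0.822. At the CpG-rich 5′-most start site the highest signals were 0.442 and 0.570. An intronic peak at 24074 bp (0.980 and 0.788) and a coding exon peak at 59674 bp (0.995 and 0.766) had signals close to that of the promoter.

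Xirp2 encodes a Xin actin-binding repeat protein that stabilises thin filaments and marks remodelling myofibrils (chr2:67446002-67526614). Its start site peak had 1.85 and 1.08 (1.47 ± 0.543, SD, n = 2) and held a MEF2 match at -74, under no footprint. Its highest peak lay deep in an intron at 35219 bp, with 2.66 and 1.48, and held an MCAT site. The peak at 30799 bp, over a coding exon and UTR, was low (0.746 and 0.436), yet its E-box was under a footprint in both replicates. In all, 5 shared peaks fell within the Xirp2 gene or at its start, and none in the flanks.

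**Figure D2:**
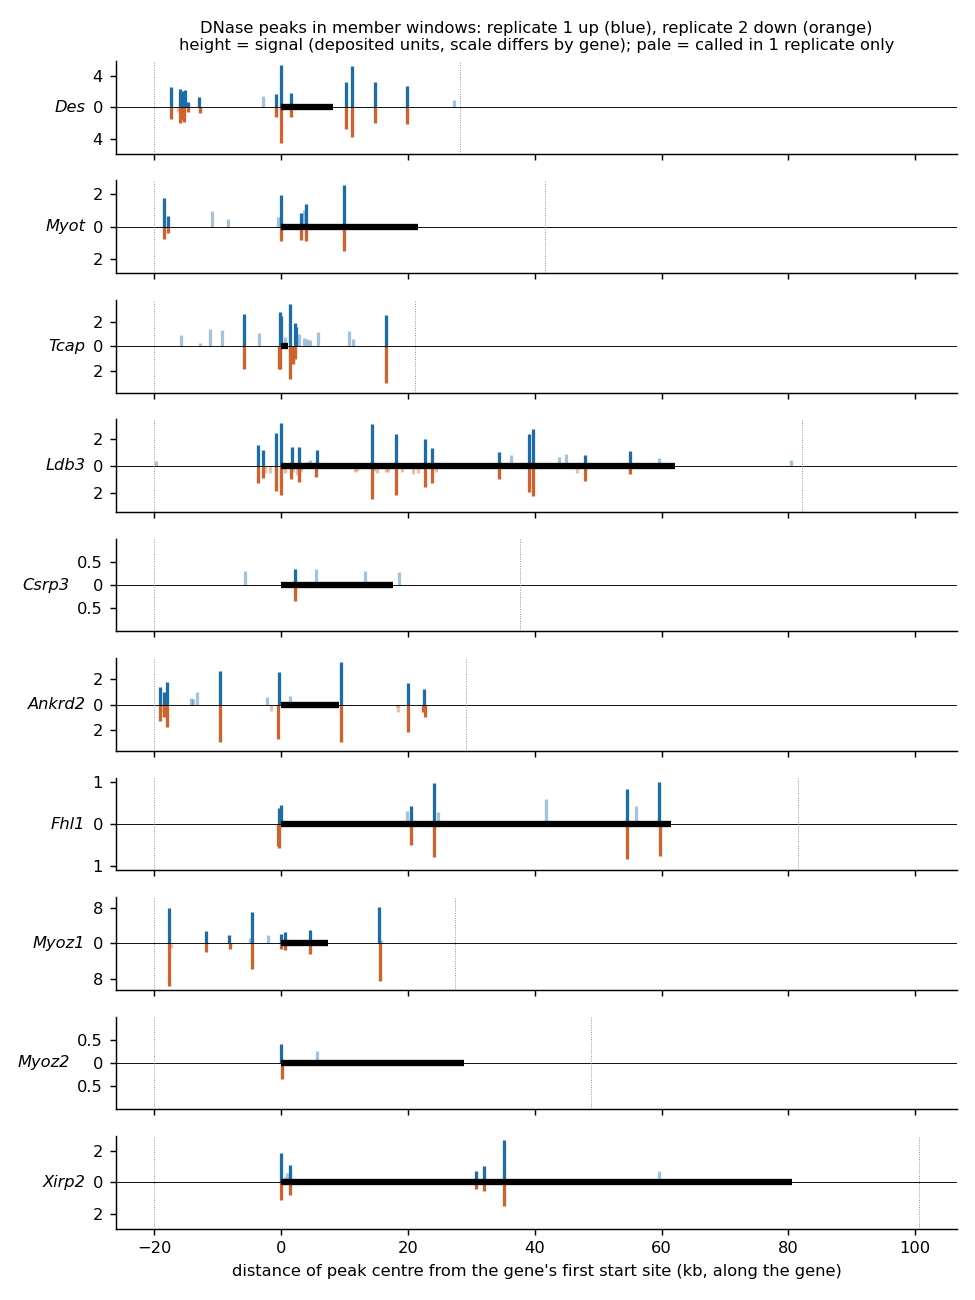
Peaks in the window of each member by distance of their centre from the 5′-most start site (kb, along the gene), with replicate 1 upward, replicate 2 downward, height as signal in deposited units (scale differs by gene) and the gene body as a black bar between dotted window ends. Des shows an upstream group and a downstream pair, Ldb3 a chain of peaks along its body, and Csrp3 and Myoz2 few and low peaks.

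In total the members' windows held 106.5 ± 16.3 peaks (SD, n = 2), with a median of 10.5 per window in replicate 1 and 6.5 in replicate 2, beside 6 and 4 over all genes. Per 10 kb of window the medians were 1.97 and 1.34, beside 0.821 and 0.580 over all genes. Their median signal was 1.15 and 1.00, beside 0.599 and 0.760 for all peaks. Member promoters held 21 and 17 peaks, member introns 34 and 33, and promoters of neighbouring genes 13 and 10. Bodies of neighbours held 26 and 17 peaks and intergenic sequence 19 and 13, so a peak in a window need not act on the member. Promoter bases in stretches under a false discovery rate of 0.05 made up a median of 32.3% and 20.5% at the members, beside 19.4% and 16.7% over all genes. All 10 members held such bases, and the median over the genes that did was 34.4% and 30.9%, above that of the members in both replicates.

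Of the window peaks, 71 of 118 in replicate 1 (60.2%) and 72 of 95 in replicate 2 (75.8%) overlapped a peak of the other replicate, beside 58.4% and 83.6% of all peaks. At Des 13 of 15 and 13 of 14 peaks were shared, the most complete match among windows with more than 10 peaks. At Tcap 7 of 20 peaks of replicate 1 were shared and all 7 of replicate 2. At Ldb3 16 of 24 and 16 of 33 were shared, and 17 peaks were called in replicate 2 alone. Those 17 were low, from 0.403 to 0.671. The 13 Tcap peaks of replicate 1 alone ran from 0.218 to 1.42. Of the 47 and 23 member peaks called in 1 replicate, 3 and 1 held any base under a false discovery rate of 0.05 in the other. The same count was not made for all 54665 and 15054 such peaks of the 2 replicates. Whether it is particular to these windows is thus not known.

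Ldb3 was the only member with more peaks in replicate 2 than in replicate 1. Its promoter bases moved the same way, with 34.8% open in replicate 1 and 61.4% in replicate 2, while its start site signal was lower in replicate 2. Tcap went the other way in width, with 73.1% and 39.0% of promoter bases open. Ttn, the titin gene, chosen here after its values were seen, also had more peaks in its window in replicate 2 (68) than in replicate 1 (30).

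**Figure D3:**
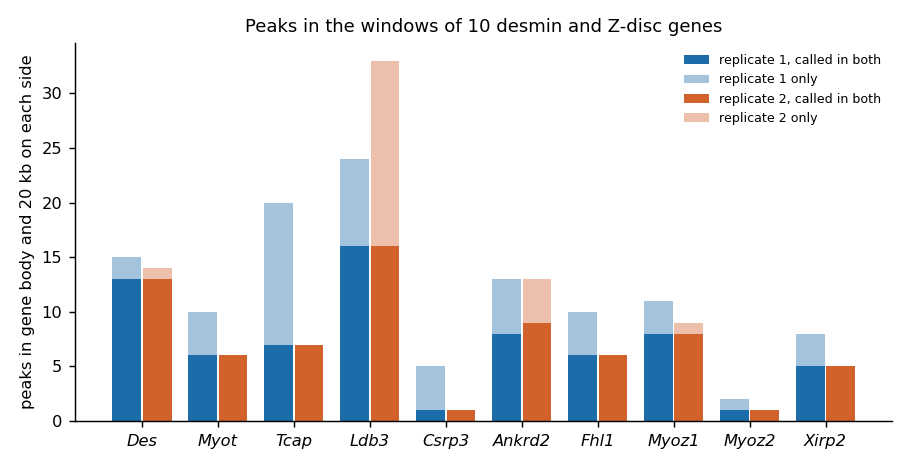
Number of peaks in the window of each member in replicate 1 (blue) and replicate 2 (orange), with peaks that overlap a peak of the other replicate in full colour and the rest pale. Tcap has 13 peaks in replicate 1 alone and Ldb3 has 17 in replicate 2 alone.

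Footprints numbered 2.62 per window peak in replicate 1 and 2.91 in replicate 2, beside 2.34 and 2.30 over all peaks. Of the window peaks 85.6% in replicate 1 and 89.5% in replicate 2 held at least 1, beside 83.1% and 82.1% of all peaks. Of the members' footprints 40.6% and 51.9% overlapped a footprint of the other replicate, beside 41.6% and 61.5% of all footprints. Ldb3 had the most in both replicates (77 and 90). Tcap had 60 and 35, Des 49 and 43 and Myoz1 46 and 38, so Tcap stood second in replicate 1 and below Des and Myoz1 in replicate 2. Csrp3 had 4 and 1, and Myoz2 had 1 and 0.

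Muscle motifs were searched on both strands in the 200 bp around the centre of each peak. In narrower peaks this stretch runs past their ends. CAGCTG was found in 28.0% of the members' window peaks in replicate 1 and 24.2% in replicate 2, beside 19.7% of all peaks in both. MEF2 matches were found in 7.63% and 5.26%, beside 3.03% and 1.96%. MCAT matches were found in 10.2% and 9.47%, beside 12.3% and 11.5%, so the TEAD letters were not more frequent here. Of the members' promoter peaks 8 of 21 and 6 of 17 held CAGCTG (38.1% and 35.3%), beside 13.5% and 13.2% of all promoter peaks, and 4 and 2 held MEF2 (19.0% and 11.8%), beside 1.24% and 0.856%. For the 9 CpG-poor members the E-box shares were 41.2% and 42.9%, beside 17.4% and 17.3% of all promoter peaks of CpG-poor genes, and the MEF2 shares 23.5% and 14.3%, beside 2.13% and 1.42%. Outside promoters the E-box shares were 26.2% and 23.5%, beside 21.4% and 22.2%. AP-1, which is no muscle motif, was found in as many of the members' promoter peaks as MEF2 (19.0% and 11.8%), beside 3.09% and 2.64% of all promoter peaks. At promoters the CArG box was found in 1 member peak per replicate (4.76% and 5.88%), beside 0.803% and 0.773% of all promoter peaks, and TATAAA in 1 (4.76% and 5.88%), beside 3.51% and 2.73%. Some peak records overlap each other, so the counts are not independent. In RefSeq promoter windows of fixed length (250 bases before to 50 after a start site), which do not depend on peaks, 7 members matched with 10 windows. CAGCTG was found in 2 of these, beside 16.3% of 32851 windows, MEF2 in 2 beside 3.19% and the CArG box in 3 beside 1.63%. AP-1 was found in 4 beside 5.20% and MCAT in 0 beside 14.7%. Tcap, Myoz1 and Myot had no such window. The higher E-box share of the members' promoter peaks was therefore not seen in the windows of the members that matched.

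**Figure D4:**
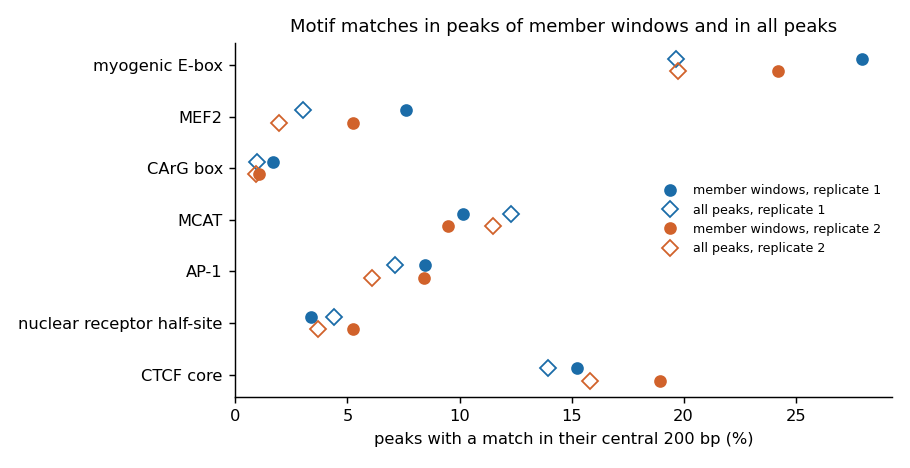
Share of peaks (%) with a motif match in the 200 bp around their centre, in the members' windows (filled circles) and in all peaks (open diamonds), for replicate 1 (blue) and replicate 2 (orange). AP-1 is TGACTCA or TGAGTCA and the nuclear receptor half-site AAGGTCA. The E-box and MEF2 circles lie to the right of their diamonds in both replicates, and the MCAT circles to the left.

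Within the whole extent of the members' peaks there were 40 CAGCTG matches, at least 1 in every window. Of these, 13 were under a footprint in some replicate and 5 in both. The 5 were the Des match at -829, the Ankrd2 match at -17944, the Myoz1 match at 638, the Tcap window match at 1376 and the Xirp2 match at 30824 from the nearest start site. MEF2 had 10 matches in 6 windows, 1 of them under a footprint in a single replicate, and MCAT 16 matches in 5 windows, 3 under a footprint. Of the members' footprints, 2.63% in replicate 1 and 3.11% in replicate 2 held CAGCTG, beside 2.03% and 2.05% of all footprints. For MEF2 the shares were 0.292% and 0%, beside 0.201% and 0.0790%. For MCAT they were 0.877% and 0%, beside 0.852% and 0.715%. The footprinted matches were thus the smaller part for each of these motifs. The shares of the members' footprints that held a motif were near those of all footprints. How often a match lies under a footprint over all peaks was not computed. A match is a run of letters and not a bound site.

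Some of the strongest shared peaks outside promoters held a CTCF core. The core was added to the motifs after sequences had been seen, so their number is no test of an excess. Of the 8 windows with such a peak, those of Des, Ldb3, Ankrd2, Myoz1 and Fhl1 held the CTCF core in it, and in all 5 the core was under a footprint in both replicates. Those of Tcap, Myot and Xirp2 held none. How often a core lies under a footprint over all peaks was not computed. Over the genome, the core was found in 13.9% of peaks outside promoters in replicate 1 and 16.2% in replicate 2. Among peaks outside promoters at least as high as the median of these 8 it was found in 28.6% and 32.4%. Among those at least as high as the lowest of the 8 it was found in 24.1% and 23.9%. Over all peaks outside promoters in the members' windows it was found in 12 of 84 and 12 of 68 (14.3% and 17.6%). The members' promoter peaks held it in 3 of 21 and 5 of 17 (14.3% and 29.4%), beside 14.0% and 14.8% of all promoter peaks. Cores in the promoter peaks of Des (-124), Tcap (-298) and Ankrd2 (-482 and -352) were also under a footprint in both replicates. Of the members' footprints 4.39% and 4.50% held the core, beside 4.02% and 4.64% of all footprints. Whether CTCF was bound was not measured.

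At most members the ratio of promoter signal, replicate 2 over replicate 1, was below that of most genes. Over 13683 genes with a promoter peak in both replicates the median log2 ratio of replicate 2 to replicate 1 was 0.0999, with 5% below -0.35 and 5% above 0.52. Of the members, 9 of 10 lay below that median and Ankrd2 lay at it (0.10). Their median was -0.37, with Myot (-1.15), Myoz1 (-0.83), Xirp2 (-0.77), Tcap (-0.54) and Ldb3 (-0.52) below -0.35. Csrp3 (-0.02) and Fhl1 (-0.01) differed little. Over the 71 pairs of shared window peaks 59 lay below the median of all shared peaks (-0.01), with a member median of -0.33. All 13 pairs at Des, 15 of 16 at Ldb3 and all 5 at Xirp2 were below it, but only 2 of 6 at Fhl1.

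Marker genes of cell types moved alongside. All 5 muscle fibre markers (Acta1, Ckm, Ttn, Mylpf, Tnnt3) lay below the all-gene median, with a median of -0.35 and signals of 3.03 to 4.82 in replicate 1 and 2.11 to 4.08 in replicate 2. All 3 endothelial markers (Pecam1, Cdh5, Kdr) lay above it, with a median of 0.79 and signals of 0.437 to 0.766 and 0.755 to 1.05. The 3 fibro-adipogenic markers had a median of -0.02, and all 3 also lay below the all-gene median. Of the macrophage markers Ptprc and Csf1r had no promoter peak in either replicate. The part of tissue make-up in the members' difference was not tested. The third macrophage marker, Adgre1, had 0.335 and 0.470, and of the neuron markers Rbfox3 had 1.50 and 1.97 and Slc17a7 no peak. Of the smooth muscle markers, Myh11 had 1.83 and 1.89, Acta2 had 0.569 and 0.498, and Cnn1 had 0.426 in replicate 1 and no peak in replicate 2. By the ratio, Adgre1 and Rbfox3 lay above the all-gene median, and Myh11 and Acta2 below it. Promoters of the heart markers Myh6, Nppa and Myl7, the satellite cell markers Pax7, Myf5 and Calcr and the liver markers Alb and Apoa1 had no peak, whereas all 5 muscle fibre markers had a peak in both replicates, which fits the labelled tissue.

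**Figure D5:**
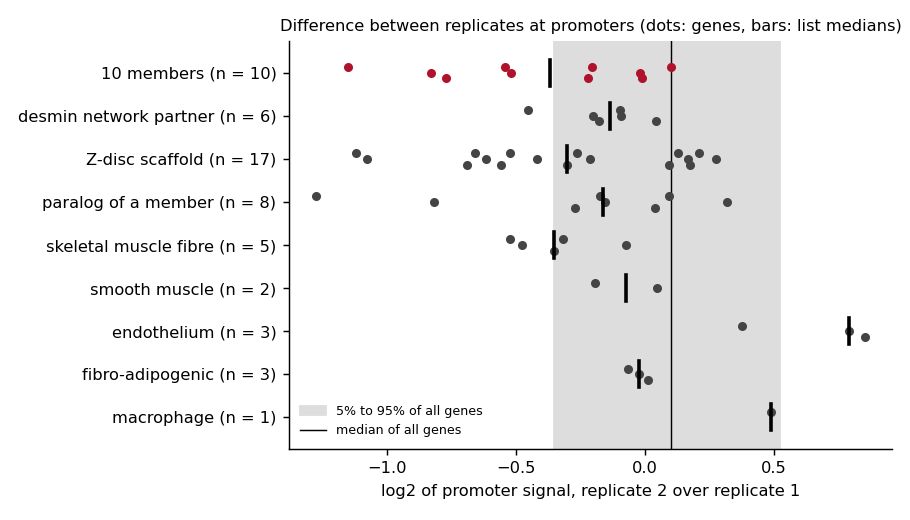
Log2 of promoter signal in replicate 2 over replicate 1 for the members (red), related gene lists and cell type markers, with list medians as bars, the median of all genes as a line and the 5% to 95% range of all genes in grey. The members and the muscle fibre markers lie mainly left of the line. The fibro-adipogenic and smooth muscle markers also lie left of it, and the 3 endothelial markers right of it.

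Other genes of the same structures were open too. Of 32 further desmin network and Z-disc genes and paralogs of the members, 31 had a promoter peak in both replicates, beside 62.4% of all genes. With the stricter list 31 had 1 in replicate 1 and 27 in replicate 2. The lowest signals were 0.548 (Fhl2) in replicate 1 and 0.363 (Ankrd1) in replicate 2, and open here means only that a peak was called. The exception was Nebl, which encodes the nebulin-like protein nebulette of heart, with no promoter peak in either. Of the desmin partners, all 6 were open, and the highest by mean rank were Synm, the synemin filament protein (6.44 and 6.04), and Cryab, a small heat shock protein that binds desmin (6.07 and 4.43). In replicate 2 Plec, the plectin gene, was above Cryab (4.55). Of the Z-disc scaffold genes 17 of 18 were open, and the highest by mean rank were the chaperone adaptor gene Bag3 (7.93 and 8.91) and Pdlim5 (6.00 and 6.78), which encodes a PDZ and LIM protein like ZASP. In replicate 1 Actn3, an alpha-actinin gene of fast fibres, was above Pdlim5 (6.06). All 8 paralogs were open, and the highest by mean rank were Ankrd23 (3.70 and 3.06), of the same titin-binding family as Ankrd2, and Csrp2 (2.87 and 3.07). The list medians were 4.47 and 4.17 for the desmin partners, 2.76 and 1.90 for the scaffold genes and 2.30 and 2.38 for the paralogs. Relative to the all-gene median ratio, 6 of 6 partners, 12 of 17 scaffold genes and 7 of 8 paralogs lay below it.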

How the data were processed

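DNase-seq signal, peaks, footprints and stretches under a false discovery rate were taken as deposited for 2 gastrocnemius samples on build mm10. The signal of a peak (column 7) was scaled per file by the authors, on a scale the deposited files do not state. The p-value column of the deposited rate files is a false discovery rate under 0.05, and in the footprint files it holds the same value in every record, so positions alone were used. All files were made per sample from filtered alignments, per the deposited descriptions; the caller and aligner are not given in the sources used here. The larger peak list of each sample was used. It holds some records that overlap the one before (1507 and 1311).

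Genes, start sites and exons were those of GENCODE M21; 85 genes with no protein-coding transcript took the start of their record. Overlap meant at least 1 bp. A footprint covered a motif when it held at least 50% of it. CpG content was taken from 250 bases before to 50 after the 5′-most start site. Motif searches used the GRCm38 reference, whose chromosome lengths hold every peak. Scripts (Python 3.11.15, pandas 2.3.3, numpy 2.4.6) were tested on simulated intervals. All 10 members were named by rule, with, in each window, the strongest promoter peak, the strongest shared peak elsewhere, peaks of 1 replicate and neighbours with the highest peak; further peaks were picked after their values were seen; from each of the 3 related lists the 2 genes of highest promoter rank and those with no peak. Members and lists were chosen with earlier results of these data known. Sequences of chromosome 18 (Myot) are not printed. Alternatives were each replicate alone, the stricter list, the better 50% of peaks, other windows and promoter widths, and a stricter overlap.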

Additional observations from a re-analysis of the deposited data

How the results depend on the processing

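Of 63 alternatives over 11 results, 54 left a count within 1.5 times of its value or moved a value by less than the SD between replicates. With 2 replicates, leaving 1 out always moves a mean by less than that SD. For shares and medians these alternatives were thus fixed in advance and say nothing of stability. With 50 kb on both sides of the genes the windows held 173 peaks and 526.5 footprints on average, and 22.1% of peaks held CAGCTG, against 26.1%. Counting only peaks inside a member, or nearest to it, left 69.5. With the better 50% of peaks by signal 81.8% were called in both replicates, 94.8% held a footprint and 29.2% held CAGCTG. With the stricter list 92.9% held a footprint and 29.5% CAGCTG. Members with a promoter peak numbered 8.5 on average with the stricter list, 8 with the better 50% of peaks and 9 with a 500 bp promoter or the 5′-most start site alone; Csrp3 and Myoz2 were the genes lost in the first pair. Those for open bases, other genes, merged records and the replicate ratio were chosen after seeing the data. The members below the all-gene median ratio were 9 of 10 against CpG-poor genes or by rank, and 7 of 8 with the stricter list. Using either replicate alone, promoter peaks stayed at 10, window peaks ran from 95 to 118, the median promoter signal from 1.25 to 2.22, peaks called in both from 60.2% to 75.8%, footprints from 289 to 342, footprints called in both from 40.6% to 51.9%, peaks with a footprint from 85.6% to 89.5%, CAGCTG from 24.2% to 28.0%, open promoter bases from 20.5% to 32.3%, and other genes stayed at 31. No paired analysis was possible because there is a single group and no contrast. Depth is unknown, and whether deeper sequencing would call further peaks at Csrp3 or Myoz2 was not tested. Their promoter signals were low beside those of other genes of the same file.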
